A study of Mus musculus with 8 samples.

Results

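The miR-29 family was followed over 8 small RNA libraries of the left spinal cord of C57BL/6 mice. Its members were chosen by name as the 7 listed mature arms of miR-29a, miR-29b and miR-29c, out of 1396 mature mouse miRNAs in the deposited table. The 4 bone cancer pain libraries came from mice with cells of the mouse lung cancer line LL/2 transplanted into the marrow cavity of 1 femur, the left. The 4 sham libraries came from mice given normal saline in its place. No genotype, age or time after surgery is stated. Whether each library stands for its own animal is also unstated; the p-values therefore rest on library-to-library spread, which may be technical.

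Animal miRNAs are cut from a hairpin whose 5p and 3p arms pair with each other. Usually the guide arm is kept in the silencing complex and finds its targets through its seed, the stretch from base 2 to base 8, while the passenger arm is mostly degraded. The 3p arms are the guides of the miR-29 family. They are known to repress mRNAs of collagens and other matrix proteins, of the DNA methyltransferases Dnmt3a and Dnmt3b and, in mature mouse neurons, of proapoptotic BH3-only proteins, and they accumulate as the mouse brain matures.

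The mature sequences show what the arms share, so all 7 are given, from RefSeq (GRCm38.p6), 5′ to 3′ with the seed in capitals.
miR-29a-3p: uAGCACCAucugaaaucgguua
miR-29b-3p: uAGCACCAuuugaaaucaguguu
miR-29c-3p: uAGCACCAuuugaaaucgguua
miR-29a-5p: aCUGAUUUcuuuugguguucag
miR-29b-1-5p: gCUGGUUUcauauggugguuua
miR-29b-2-5p: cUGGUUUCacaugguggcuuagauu
miR-29c-5p: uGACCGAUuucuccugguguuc

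The 3 guides had the seed AGCACCA, which no other mature miRNA of the RefSeq table holds, whereas the 4 passenger arms had 4 different seeds. Counting from 1 at the 5′ end of miR-29a-3p, miR-29c-3p differed from it by C10U alone, so 21 of 22 bases were identical. miR-29b-3p differed from miR-29c-3p by G18A, U21G and A22U over the 22 bases compared, after 17 identical bases. Reads that end before base 18 fit both, and how such reads, or reads with a mismatch at base 10, were assigned is not stated. The 3′ hexamer AGUGUU, known from human cells to direct miR-29b to the nucleus, was held by miR-29b-3p and by none of the other 6 arms, and among 1679 mature sequences, 2 end with it (0.119%) and 12 hold it anywhere (0.715%). All 3 guides begin with U, as does miR-29c-5p among the passenger arms. The other 3 passenger arms begin with A, G or C.

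The arms come from 4 hairpin genes at 2 loci. Mir29a (chr6:31062660-31062747) and Mir29b-1 (chr6:31063023-31063093) lie 275 bases apart on the minus strand of chromosome 6. In GENCODE M21 Mir29b-1 shares 2 bases with the lincRNA gene Gm27019, and Mir29a overlaps no other gene. Mir29b-2 (chr1:195037040-195037120) and Mir29c (chr1:195037547-195037634) lie 426 bases apart on the plus strand of chromosome 1. Both are within an exon of the noncoding transcript A330023F24Rik-204 and opposite the untranslated part of an exon of Cd46 on the other strand. The mature miR-29b-3p is identical from both loci, so its reads cannot be assigned to either. Its 5p arms differ and mark the locus of origin: lined up from base 2 of miR-29b-1-5p and numbered along it, they were identical at 19 of 21 bases and differed by U11C and U19C.

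Reads assigned to listed miRNAs numbered 5220739 to 9260169 per library, out of library totals of 7686762 to 13498956. Values are in CPM, reads scaled to the library total. A floor of 3 reads stood at 0.222 to 0.390 CPM. Floors and counting intervals take in counting error alone, because PCR copies of 1 molecule are counted as separate reads. Summed CPM of 16 neuronal arms ran from 107728 to 134522 in bone cancer pain and from 115174 to 129375 in sham, and of 7 oligodendrocyte arms from 2442 to 2601 in bone cancer pain and from 2065 to 3979 in sham, with both arms of miR-219b under the floor. Striated muscle arms, 12 in number, summed to 6068 to 16950 CPM in bone cancer pain and 5379 to 29313 CPM in sham, where sham 1 and sham 2 were high. The summed microglia and leukocyte, erythroid, vascular and connective tissue arms and miR-122, the liver marker, also overlapped between the groups. The 14 arms listed as astrocyte-associated summed to 51651 to 72206 CPM in bone cancer pain and 40304 to 50165 CPM in sham, without overlap. Most of this sum came from miR-26a-5p and the vascular miR-143-3p, with means of 27871 and 21777 CPM over the 8 libraries. This list also holds the vascular miR-145a, and its part in the results below was not tested.

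Most family reads were of 1 guide, mmu-miR-29a-3p, which had 2561, 2759, 3366 and 2733 CPM in bone cancer pain 1 to 4, against 2425, 2623, 2639 and 2888 CPM in sham 1 to 4. Bone cancer pain 3 was above every sham library and the other 3 lay within the sham range, so the groups overlapped. By mean CPM over the 8 libraries it ranked 35 among the 1396 listed miRNAs. It supplied 93.3% ± 0.501 of the summed CPM of the 3 guides in bone cancer pain and 94.0% ± 0.591 in sham (SD, n = 4 each).

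mmu-miR-29b-3p, the guide made from both loci, stood at 146, 165, 232 and 163 CPM in bone cancer pain and at 155, 131, 132 and 139.98 CPM in sham. In 3 of the 4 bone cancer pain libraries it was above every sham library, and bone cancer pain 1 lay below sham 1. Its share of the guides was 5.72% ± 0.450 in bone cancer pain and 4.99% ± 0.638 in sham. mmu-miR-29c-3p, the guide unique to chromosome 1, stood at 25.2, 30.55, 38.1 and 27.3 CPM in bone cancer pain and at 23.3, 25.5, 24.7 and 35.4 CPM in sham. The groups overlapped, with bone cancer pain 3 and sham 4 high. It made up 0.984% ± 0.0662 of the guides in bone cancer pain and 0.963% ± 0.129 in sham.

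Because the guides share a seed, their sum gives the CPM of reads assigned to arms with that seed. It was 3061 ± 396 CPM in bone cancer pain and 2810 ± 190.0 CPM in sham, ran from 2732 to 3636 CPM in bone cancer pain and from 2603 to 3063 CPM in sham, and came to between 97.2% and 98.2% of the CPM of all 7 arms in every library. Of all listed miRNA CPM the family took 0.453% ± 0.0678 in bone cancer pain and 0.422% ± 0.0304 in sham.

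mmu-miR-29c-5p was the most abundant passenger arm. It stood at 49.1, 46.8, 47.5 and 38.7 CPM in bone cancer pain and at 57.55, 56.2, 50.6 and 69.7 CPM in sham. All 4 bone cancer pain libraries were below every sham library, but the nearest pair lay within counting error: the 400 reads of bone cancer pain 1 allow 44.4 to 54.2 CPM, and the 638 reads of sham 3 allow 46.7 to 54.6 CPM (exact Poisson 95% intervals). Of the summed CPM of the 4 passenger arms it took 74.7% ± 3.01 in bone cancer pain and 79.7% ± 1.82 in sham.

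The other passenger arms were low. miR-29b-2-5p ran from 7.98 to 11.53 CPM in bone cancer pain and from 7.21 to 11.58 CPM in sham, on 65 to 115 reads. miR-29a-5p ran from 4.01 to 5.27 CPM in bone cancer pain and from 3.48 to 6.45 CPM in sham, on 34 to 64 reads. miR-29b-1-5p, on 8 to 20 reads, ran from 0.98 to 2.01 CPM in bone cancer pain and from 0.74 to 2.47 CPM in sham. For all 3 the sham range enclosed the bone cancer pain range. Over the 8 libraries the coefficient of variation of miR-29b-1-5p was 35.5%, on reads too few to set it apart from counting error with confidence. That of miR-29a-3p was 10.4%, against 0.586% from counting alone.

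**Figure D1:**
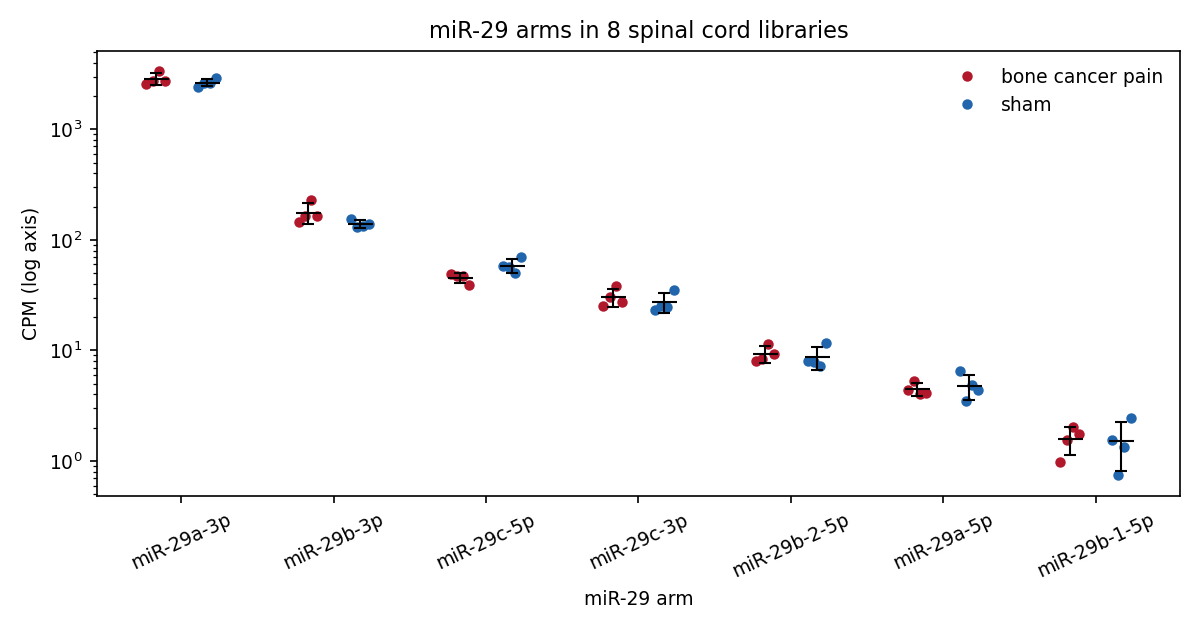
CPM (log axis) of the 7 miR-29 arms, ordered by mean, in 4 bone cancer pain and 4 sham libraries; points are libraries, black bars the group mean ± SD. miR-29a-3p lies near 2749 CPM and miR-29b-1-5p near 1.56 CPM, and the groups are apart for miR-29c-5p.

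From high to low the order of the means was miR-29a-3p, miR-29b-3p, miR-29c-5p, miR-29c-3p, miR-29b-2-5p, miR-29a-5p and miR-29b-1-5p. Each arm was above the next in 8 of 8 libraries. The order came from these same libraries, so the test that follows is not independent of it. All 6 neighbouring pairs differed in a two-sided exact sign-flip permutation test of log2(CPM + 1) over the 8 libraries (p = 0.0078 for each pair, the smallest this test can give, and likewise after Benjamini-Hochberg adjustment over the 6). The widest step was from miR-29a-3p down to miR-29b-3p, at 4.13 ± 0.18 on the log2 scale (SD, n = 8). Steps of 0.83 ± 0.33 separated miR-29c-5p from miR-29c-3p and of 0.82 ± 0.37 miR-29b-2-5p from miR-29a-5p. Reads of different small RNAs can be captured with different efficiency, so these are orders of the abundance of reads as assigned.

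The arms of a hairpin were next compared within each library. The ratio of their CPM does not depend on how the library was scaled, whereas the log2 ratio used for the fit, with 1 CPM added to each arm, depends on it slightly for low arms. Over all 183 hairpins with a mean of at least 1 CPM on both arms, the 3p arm was higher on average in 89 and the 5p arm in 94. The size of the difference had a median of 3.23 on the scale of log2((3p CPM + 1)/(5p CPM + 1)), and it was under 1 in 40 hairpins. miR-29a was strongly one-sided, at a mean of 8.94, a size above that of most hairpins (percentile 91.3). Its 3p arm exceeded its 5p arm by 523-fold to 840-fold in bone cancer pain and by 376-fold to 754-fold in sham. miR-29b, with its 5p arms summed, had a mean of 3.78 (percentile 54.1), and its guide exceeded them by 14.7-fold to 17.1-fold in bone cancer pain and by 9.96-fold to 16.2-fold in sham. miR-29c had the opposite balance, at a mean of -0.83 (percentile 17.5): its 5p arm, the passenger by name, was above its 3p arm in 8 of 8 libraries. Its 3p arm differs from miR-29a-3p at 1 base, and how reads with a mismatch there were assigned is not stated. The balance is therefore that of reads as assigned. In 166 of the 183 hairpins the same arm was higher in all 8 libraries.

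The first bases can be set beside these balances. Among 151 tested hairpins with both arms in the RefSeq table, the more abundant arm began with U in 51.7% and the less abundant arm in 23.8%. For miR-29c both arms begin with U, for miR-29a and miR-29b the guide alone. This is a description of the sequences, and the part of the first base in these ratios was not tested.

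**Figure D2:**
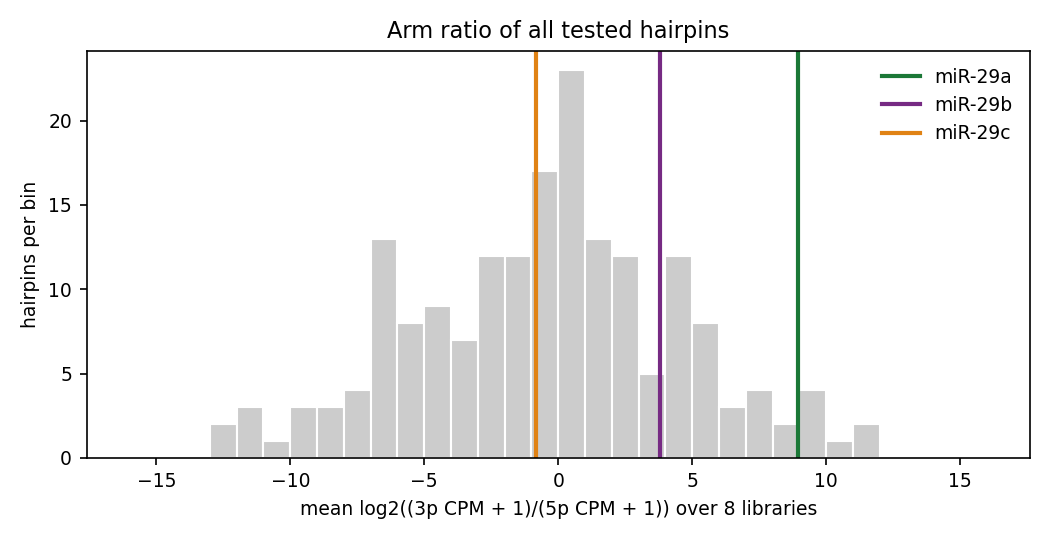
Mean log2 ratio of 3p over 5p arm over 8 libraries for all 183 tested hairpins (grey, hairpins per bin of width 1), with miR-29a, miR-29b and miR-29c as lines. miR-29a (8.94) lies in the right tail, miR-29b at 3.78, and miR-29c just left of 0, at -0.83.

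The ratio of the miR-29c arms was the one whose groups stood apart. As 3p over 5p CPM it was 0.513, 0.653, 0.802 and 0.705 in bone cancer pain 1 to 4, against 0.405, 0.453, 0.489 and 0.508 in sham 1 to 4. Every bone cancer pain library was above every sham library. The edges touched within counting error: the 3p arm held 33.9% of the reads of both arms in bone cancer pain 1 (205 of 605 reads, exact Clopper-Pearson 95% interval 30.1% to 37.8%) and 33.7% in sham 4 (272 of 808 reads, 30.4% to 37.0%). Of all 183 hairpins, 1.64% had groups that did not overlap with bone cancer pain higher, and 4.92% in either direction.

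On the log2 scale the miR-29c ratio averaged -0.58 ± 0.26 in bone cancer pain and -1.09 ± 0.14 in sham (SD, n = 4 each). The difference of 0.50 (95% interval 0.15 to 0.85) had an unadjusted p of 0.0076 in the limma fit over all hairpins, the fourth smallest, but an adjusted p of 0.348. It therefore did not pass. The difference takes in the log2 fold changes of both arms, -0.35 for miR-29c-5p and 0.15 for miR-29c-3p. This ratio is thus not separate from the gap between the groups in miR-29c-5p. Of the 183 ratios, 0 passed an adjusted p of 0.05 (0%) and 17 had an unadjusted p under 0.05 (9.29%). For miR-29a the difference was 0.17 (95% interval -0.23 to 0.58; limma adjusted p 0.716) and for miR-29b 0.22 (-0.13 to 0.56; limma adjusted p 0.652), both with overlapping groups. Single libraries moved both: the miR-29a difference was 0.0022 without sham 1, 0.050 without bone cancer pain 3 and 0.28 without sham 2, and the miR-29b difference was 0.069 without sham 4.

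**Figure D3:**
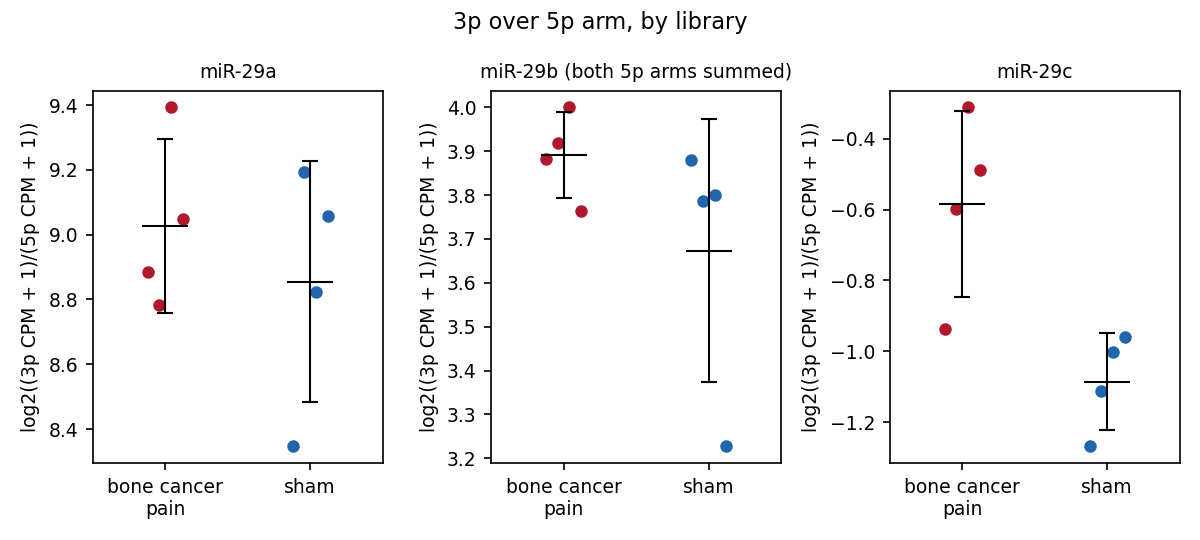
Log2 ratio of 3p over 5p arm (CPM + 1) by library for miR-29a, miR-29b (both 5p arms summed) and miR-29c, bone cancer pain left and sham right; bars are group mean ± SD, and each panel has its own vertical scale that does not start at 0. In the miR-29c panel bone cancer pain (-0.94 to -0.31) lies above sham (-1.27 to -0.96), and in the others the groups overlap.

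The loci on chromosome 6 and chromosome 1 were compared through arms that only 1 of them makes. By guide, chromosome 6 was far ahead: miR-29a-3p exceeded miR-29c-3p by 88.3-fold to 102-fold in bone cancer pain and by 81.6-fold to 107-fold in sham. These guides differ at 1 base, and how reads with a mismatch there were assigned is not stated. By passenger arm, chromosome 1 was ahead: miR-29c-5p exceeded miR-29a-5p by 8.87-fold to 11.9-fold in bone cancer pain and by 8.92-fold to 16.2-fold in sham. The passenger arms of miR-29b pointed the same way, with miR-29b-2-5p 5.25-fold to 8.14-fold above miR-29b-1-5p in bone cancer pain and 4.69-fold to 10.6-fold above it in sham. Of the reads of these 5p arms, 84.0% to 89.0% came from chromosome 1 in bone cancer pain and 82.4% to 91.4% in sham, on 73 to 135 reads per library.

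The balance of the loci did not differ detectably between the groups. Log2 ratios of the loci were taken with 1 CPM added to each arm, so for low arms they understate the folds given above. The log2 ratio of chromosome 6 over chromosome 1 was lower by 0.044 in bone cancer pain for the guides (log2 difference -0.044, means 6.52 ± 0.096 and 6.57 ± 0.17), higher by 0.29 for miR-29a-5p over miR-29c-5p (means -3.09 ± 0.18 and -3.38 ± 0.37), and different by -0.046 for the 5p arms of miR-29b (ranges -2.18 to -1.88 and -2.35 to -1.80). The two-sided exact permutation p over all 70 arrangements of the labels was 0.743, 0.286 and 0.743 in that order, and 0.743 for each after adjustment over the 3 ratios. The smallest p this exact test can give is 0.0286, so 1 ratio by itself could not pass 0.05 after the adjustment. Leaving out 1 library gave -0.13 (without sham 4) to -0.0056 (without sham 3) for the guides, and 0.18 (without sham 4; 0.19 without sham 2) to 0.42 (without sham 1) for miR-29a-5p over miR-29c-5p. The groups overlapped in all 3, and at this depth only 8 to 20 reads stand behind miR-29b-1-5p.

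The guides unique to each locus moved together over the libraries. miR-29a-3p and miR-29c-3p had a Pearson r of 0.926 over the 8 libraries (exact permutation p = 9.92e-05, adjusted p 0.000496 over 5 relations computed) and a Spearman rho of 0.929 (exact permutation p = 0.00223, adjusted p 0.0112). Without bone cancer pain 3 and sham 1, the libraries farthest from the median, r was 0.941. Both arms are scaled by the same library totals and differ at 1 base, and the part of either in this relation was not tested. The 4 libraries of a group are too few for a separate value.

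The other 4 relations did not pass. For miR-29a-3p with miR-29b-3p r was 0.755 and rho 0.452 (exact permutation p = 0.0599 and 0.267, adjusted 0.135 and 0.446), and r was 0.302 without bone cancer pain 3 and sham 1, the libraries farthest from the median. It rests on bone cancer pain 3: r was 0.030 without that library alone and 0.863 without sham 1 alone. For miR-29b-3p with miR-29c-3p r was 0.634 and rho 0.476 (exact permutation p = 0.0809 and 0.243, adjusted 0.135 and 0.446), with r at 0.038 without bone cancer pain 3 and sham 2. The arms of a hairpin showed no detectable relation: r was -0.452 and rho -0.323 for miR-29a (exact permutation p = 0.257 and 0.433, adjusted 0.321 and 0.501), and r was 0.113 and rho -0.286 for miR-29c (exact permutation p = 0.780 and 0.501, adjusted 0.780 and 0.501). Without the pair of libraries farthest from the median these r were 0.261 and -0.603, a turn of sign in both.

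**Figure D4:**
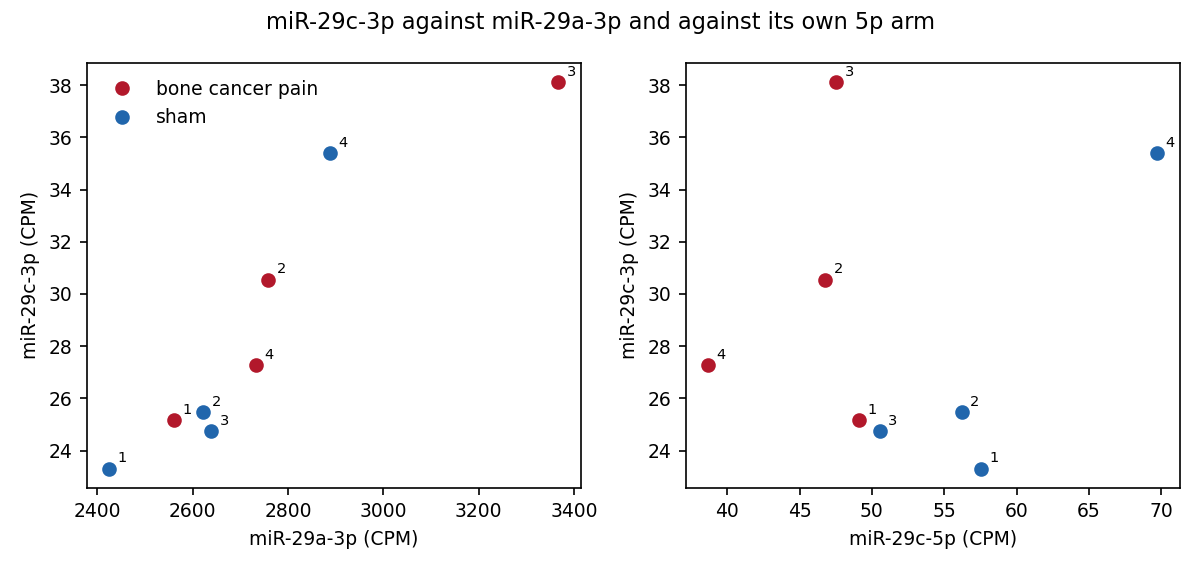
CPM of miR-29c-3p against miR-29a-3p (left) and against miR-29c-5p (right), 1 point per library with its number; axes do not start at 0. The left points rise together (r = 0.926), and on the right the bone cancer pain libraries lie to the left of the sham libraries.

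Outside the family, the miRNAs most like each guide were taken by Pearson r of log2(CPM + 1) over the 8 libraries, among the 352 that averaged 10 CPM or more. This is a description of a few libraries with shared scaling, given without p. For miR-29a-3p they were miR-9-3p (0.949), miR-107-3p (0.918) and miR-335-5p (0.908). For miR-29c-3p they were miR-154-5p (0.947), miR-325-3p (0.935) and again miR-9-3p (0.928). miR-9-3p, from a neural miRNA hairpin, averaged 1429 ± 296 CPM in bone cancer pain and 1321 ± 164 CPM in sham. For miR-29b-3p the highest were miR-434-3p (0.868), miR-135a-5p (0.847) and miR-376b-3p (0.841).

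The question of the study, which miRNAs differ in the cord of mice with a tumour in the femur, was then put to each arm. All 7 arms had a mean of at least 1 CPM and were tested with the other miRNAs that did, 605 in all. None passed. miR-29b-3p had a mean of 176 ± 37.8 CPM in bone cancer pain and 139.5 ± 10.8 CPM in sham. The log2 fold change was 0.32 (95% interval -0.03 to 0.66; limma adjusted p 0.887), or 0.18 without bone cancer pain 3. miR-29c-5p had a mean of 45.5 ± 4.66 CPM in bone cancer pain and 58.5 ± 8.07 CPM in sham. Its log2 fold change was -0.35 (95% interval -0.68 to -0.03; limma unadjusted p 0.037, adjusted p 0.887). Leaving out 1 library in turn, the unadjusted limma p of miR-29c-5p ran from 0.029 to 0.10, and it was above 0.05 without bone cancer pain 2 or 4 or sham 1, 2 or 4. In bulk tissue, fewer cells of a type and less RNA per cell cannot be told apart.

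For the remaining 5 arms the log2 fold changes ran from -0.07 for miR-29a-5p to 0.15 for miR-29c-3p, with 0.11 for miR-29a-3p (95% interval -0.15 to 0.36). Leaving out bone cancer pain 3 brought miR-29a-3p to 0.024 and miR-29c-3p to 0.037. All 7 intervals lay within 2-fold in either direction. Of the 605 miRNAs limma called 0 at an adjusted p of 0.05 (0%), as did edgeR and DESeq2 on the recovered reads. At an unadjusted p under 0.05 limma had 28 miRNAs (4.63%), edgeR 43 (7.11%) and DESeq2 31 (5.12%), among which were 1, 2 and 1 of the 7 arms. These were miR-29c-5p with all 3 tools and miR-29b-3p with edgeR. Groups that did not overlap, lower in bone cancer pain, occurred in 1.65% of the 605 (3.64% in either direction), against 1 of the 7 arms, miR-29c-5p.

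**Figure D5:**
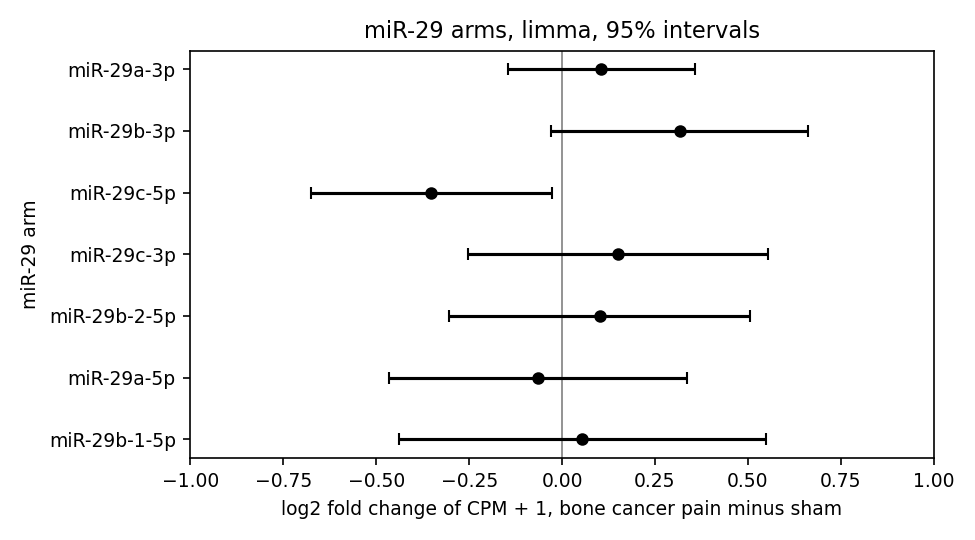
Log2 fold change of CPM + 1, bone cancer pain minus sham, for the 7 arms (points) with 95% intervals from limma (bars). The interval of miR-29c-5p (-0.68 to -0.03) lies below 0 before adjustment, and the other 6 cross 0.

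Other miRNAs known to act on the same kinds of target were set beside the family. All arms of these miRNAs were taken, here and in the next list, so passenger arms are counted along with guides. No such action is implied for the passenger arms. Of 8 arms of miR-148a, miR-148b, miR-152 and miR-185, which act on DNA methyltransferase mRNAs, 0 passed the limma test after adjustment. Of the 8, 1 had an unadjusted limma p under 0.05, against 4.63% of all 605 miRNAs. Values were higher in bone cancer pain for 5 and lower for 3, with a median log2 fold change of 0.13 against -0.0070 over all 605. miR-152-3p had a mean of 1067 CPM in bone cancer pain and 744 CPM in sham (log2 fold change 0.49, 95% interval 0.01 to 0.98, limma adjusted p 0.887). The log2 fold change was 0.43 (-0.24 to 1.10) for miR-152-5p and 0.18 (-0.07 to 0.43) for miR-148b-3p.

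Of 24 arms tied to matrix and fibrosis, 22 were tested with limma and 0 passed. Of the 22, 1 had an unadjusted limma p under 0.05, against 4.63% of all 605 miRNAs. Values were higher for 13 and lower for 9, with a median of 0.0044. miR-30b-5p, of a family that represses the matrix gene Ctgf, had a mean of 288 CPM in bone cancer pain and 234 CPM in sham. Its log2 fold change was 0.31 (95% interval 0.04 to 0.57, limma adjusted p 0.887). The muscle miRNAs miR-133b-3p and miR-133a-3p had -0.94 (-2.01 to 0.12) and -1.02 (-2.26 to 0.22); they belong also to the striated muscle list, whose sum varied between libraries of a group.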

How the data were processed

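TRIzol extraction is recorded per the labels' protocols, which describe rRNA removal and cDNA library kits, while the labels name small RNA; size selection is not given in the sources used here. Per the submitters' processing notes, fastp, STAR, Bowtie, Salmon and the build mm10 are named, with no role or order. CPM values were deposited by the authors in 1 table, 1 value per mature miRNA and library, rounded to 2 decimals, which sum to 669252 to 701908 per library. Columns that could not be mapped numbered 0.

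Reads were recovered from the steps between values: 100% came out whole within 0.0051 CPM. For bone cancer pain 3, 1 read is worth 0.100 CPM, near a rounding step, but only 16.6% of its values from 1 CPM upward fell on multiples of 0.1. Pairs of libraries within a group had chi-square values of 31.8 to 503 for each degree of freedom, far beyond sampling noise. The lowest was between bone cancer pain 1 and 2, and every other pair was at 190 or more. Such values do not show that libraries came from separate animals. Each library was counted as its own sample.

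Values were analysed as log2(CPM + 1), which understates changes of low miRNAs, with limma 3.58.1 in R 4.3.3 (trend, two-sided, Benjamini-Hochberg over all tested, threshold 0.05) after a filter of a mean of 1 CPM. Arm ratios were fitted the same way over all hairpins, with numbered copies of an arm summed. Permutation tests were exact and two-sided. edgeR 4.0.16 and DESeq2 1.42.0 on recovered reads were alternatives. The limma steps were tested on simulated data.

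The text names the 7 arms, the 3 miRNAs most correlated with each guide, and up to 3 members of each related list with the smallest unadjusted p. Members and lists were chosen with earlier results of these data known. Annotation is GENCODE M21 (GRCm38); all 7 arms matched RefSeq sequences.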

Additional observations from a re-analysis of the deposited data

Results flagged for a closer look

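Among 26 sets of 4 libraries checked (7 arms, 3 arm ratios and 3 locus ratios in each group), 3 held a library far from the other 3; chance flags about 1 in 20 such sets. In sham 4 the log2 ratio of the miR-29b guide over its summed 5p arms was 3.23, against 3.79 to 3.88 in the other sham libraries. In sham 4 the log2 ratio of miR-29a-3p over miR-29c-3p was 6.31, below the other sham libraries. In sham 2 the log2 ratio of miR-29b-1-5p over miR-29b-2-5p was -2.35, on 10 reads of miR-29b-1-5p. These log2 ratios were taken with 1 CPM added to each side. Without it the sham 2 ratio was 0.094 as CPM over CPM.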

How the results depend on the processing

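For the miRNAs the alternatives were pseudocounts of 0.1 and 5, no filter or 10 CPM, rescaled CPM, median-of-ratios scaling, no trend, edgeR, DESeq2, the replicate block and leaving out libraries; 0 passed the adjusted threshold in any. For the arm ratios they were the pseudocounts, the filters, the replicate block and leaving out libraries, and 0 passed in any. Over those the miR-29c arm ratio kept its direction, with log2 differences of 0.41 to 0.62 leaving out 1 library and 0.40 without sham 1 and sham 2 (unadjusted limma p 0.091). miR-29c-5p stayed negative, at -0.42 to -0.27 leaving out 1 library, but its unadjusted limma p was 0.083 with the replicate block. The relation of miR-29a-3p with miR-29c-3p passed in each alternative run for it, with r of 0.909 to 0.966 leaving out 1 library. All 6 steps in the order of levels passed as well, but these alternatives could not have failed. Each step had the same sign in all 8 libraries, which a changed pseudocount or a library left out cannot alter.

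Of 315 recomputed values, 9 turned in sign; the cause was not tested. Leaving out 1 library gave -0.18 to 0.063 for miR-29a-5p, -0.11 to 0.22 for miR-29b-1-5p, -0.18 to 0.013 for the ratio of miR-29b-1-5p over miR-29b-2-5p, and r of -0.400 (without sham 4) to 0.317 for the arms of miR-29c. Without sham 1 and sham 2, miR-29b-1-5p was at -0.16 and the ratio of miR-29a-3p over miR-29c-3p at 0.026. With 1 library left out the locus ratios cannot reach a p under 0.0571. At an unadjusted p under 0.05, limma had 66 of 1396 miRNAs without the filter, 17 without sham 1 and sham 2, and 42 each without bone cancer pain 3 or sham 3, against 28.

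Equal library numbers showed no sign of pairing the samples: deviations correlated at -0.31 to -0.011, and 0 of 8 libraries correlated best with their own number. With so few libraries this check cannot exclude a pairing. With the replicate block 0 of 605 miRNAs passed, 21 against 28 had an unadjusted p under 0.05, and the smallest exact p possible for the locus ratios was 0.125. In this balanced design the block leaves their differences at -0.044, 0.29 and -0.046 by construction. Depth limits miR-29b-1-5p most, at 8 to 20 reads per library.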
